A study of Mus musculus with 2 samples.

Results

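The S100 calcium-binding proteins and the galectins were examined in mouse macrophages with and without PAC1, the MAP kinase phosphatase encoded by Dusp2, after stimulation with lipopolysaccharide (LPS). The 9 genes were chosen by name: S100a4, S100a6, S100a8, S100a9, S100a10, S100a11, Lgals1, Lgals3 and Lgals9. A gene was followed through every probe set annotated to it alone, which held for 8 of the 9 genes, 5 S100 genes and 3 galectin genes, each with 1 probe set, out of 8221 genes on the array. S100a11 had no probe set of its own, because the annotation gives its probe set to 3 symbols at once.

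One group was Pac1-/- and the other was Pac1+/+ (wild type), age-matched littermates of a strain and age that the labels do not state. All the mice received 2 ml of 3% thioglycollate, a sterile irritant that recruits monocytes to the peritoneum, 4 days before lavage, and the adherent cells of both genotypes were cultured for 6 hours with LPS at 100 ng/ml. The labels call the cells 92 to 95% positive for Mac-1. There was 1 Affymetrix array per genotype, 2 arrays in all, so differences have no replicate check and no test could be made, and whether several mice were pooled is not stated. Unstimulated cells were not analysed here, so the values are levels after LPS and not inductions.

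S100 proteins are small proteins with paired EF-hand motifs that change shape on binding calcium and then dock onto partner proteins. S100A8 and S100A9 pair to form calprotectin, an abundant cytosolic protein of neutrophils and monocytes that, once released, acts as a danger signal through Toll-like receptor 4 and the receptor RAGE. Galectins bind beta-galactoside sugars on glycoproteins and cross-link surface receptors, and galectin-3 (Lgals3), also called Mac-2, is a classical surface marker of thioglycollate-elicited macrophages.

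The bases upstream of the annotated start sites of S100a8, S100a9 and Lgals9 are shown because S100a8 and S100a9, neighbours on chromosome 3 whose proteins work as a pair, had ratios of opposite sign, and Lgals9 had the widest ratio of the galectins. They are the 250 bases before the RefSeq start in build GRCm38.p6, written 5′ to 3′ on the gene's strand, with matches to the searched motifs in capitals.
S100a8, chr3:90668821-90669070, plus strand: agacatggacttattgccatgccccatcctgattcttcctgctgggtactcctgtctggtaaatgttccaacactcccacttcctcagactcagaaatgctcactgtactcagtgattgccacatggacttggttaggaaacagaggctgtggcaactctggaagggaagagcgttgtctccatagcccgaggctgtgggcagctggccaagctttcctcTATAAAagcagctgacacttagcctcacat
S100a9, chr3:90695722-90695971, minus strand: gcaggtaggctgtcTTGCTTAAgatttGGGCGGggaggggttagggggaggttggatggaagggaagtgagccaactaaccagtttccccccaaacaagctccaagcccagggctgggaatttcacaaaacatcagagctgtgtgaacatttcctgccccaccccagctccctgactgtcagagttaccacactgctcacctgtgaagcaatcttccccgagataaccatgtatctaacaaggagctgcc
Lgals9, chr11:78984925-78985174, minus strand: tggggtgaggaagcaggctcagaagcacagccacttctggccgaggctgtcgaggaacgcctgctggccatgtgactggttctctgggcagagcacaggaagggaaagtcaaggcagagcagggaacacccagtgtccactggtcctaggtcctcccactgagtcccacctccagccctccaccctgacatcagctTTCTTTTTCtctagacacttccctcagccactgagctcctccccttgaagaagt

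The windows were searched on both strands for the TATA box as TATAAA, for the GC box as GGGCGG and for the interferon response motif as GAAANNGAA. The motif of AP-1 factors was searched as TGANTCA, that of ETS factors as CGGAAG and that of C/EBP factors as TTGCNNAA. The NF-kB motif was searched as GGGRNNYYCC, where R is A or G, Y is C or T and N is any base. The capitals in S100a8 mark TATAAA at bases -30 to -25 from the start, a match that 12.4% of 32851 promoter windows of the same length held. In S100a9 they mark a C/EBP match at -236 to -229 (9.56% of windows) and a GC box at -223 to -218 (32.7%). In Lgals9 they mark an interferon response match on the opposite strand at -54 to -46, present in 7.13% of windows. None of the 3 windows held the AP-1 motif (6.75% of windows), the ETS motif (13.6%) or the NF-kB motif (7.25%) in the form searched. Other sequences that these factors bind were not searched, so their absence is not shown. A match describes the letters in the window and is not evidence of a binding site. Windows were found for 7 of the 9 genes, and not for S100a10 and Lgals1. Among the windows not printed, S100a4 held TATAAA at -31 to -26, S100a11 held 2 AP-1 matches and 3 GC boxes, Lgals3 held an ETS match, an NF-kB match and a GC box, and S100a6 held 0 matches.

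The S100 and galectin transcripts, S100a9 aside, differed by at most 1.26-fold between the knockout and wild-type macrophages, with S100a10 the furthest apart. None of the 8 genes was called 2-fold apart and none 1.5-fold apart, though the ratio of S100a9 was only a lower bound. Across all 5120 eligible genes, those for which 1 or both arrays gave a signal above the floor (36.4, the median of all signals), 2.3% differed 2-fold or more and 12.1% differed 1.5-fold or more. Beside so small a background share, 0 of 8 does not set these genes apart. Of the 8 genes, 5 had a ratio above 0 and 3 below (3 and 5 after same-median scaling, in which both arrays are given 1 common median), and the median of their log2 ratios (knockout over wild type) was 0.085, beside 0.016 for all eligible genes. S100a9 entered this count through a single signal just above the floor, and 7 genes were above the floor on both arrays.

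**Figure D1:**
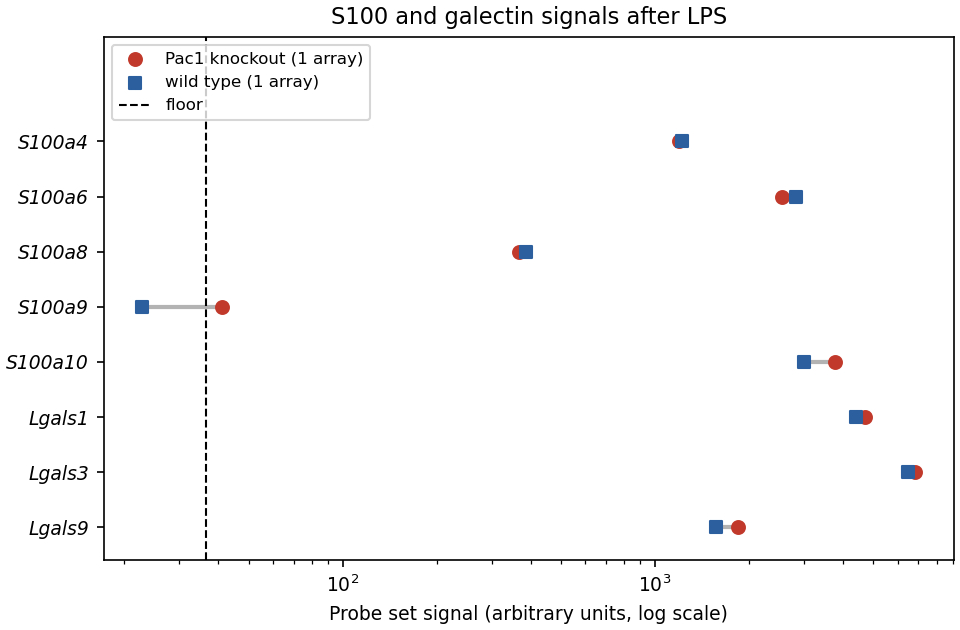
Signal of each member's probe set on the knockout array (circles) and the wild-type array (squares), in arbitrary units on a log axis, with the floor of 36.4 as a dashed line. The 2 symbols lie close together for 7 of the 8 genes, and S100a9 is the only gene with a signal below the floor.

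The calprotectin genes S100a8 and S100a9 had ratios of opposite sign. S100a8 (probe set 103448_at) gave signals of 367 for the knockout and 386 for the wild type, a log2 ratio of -0.071. S100a9 (103887_at) gave 41.2 for the knockout and 22.8 for the wild type, where the second signal lay below the floor, so that it was at least 1.13-fold higher in the knockout. The S100a9 value depended on the floor: with the floor lowered to the 25th percentile its log2 ratio was 0.85, and with no floor and a pseudocount of 1 it was 0.83, the only member value that passed 1.5-fold under any setting. Genes this dim spread widely, with 16.9% of the 2009 eligible genes whose brighter signal was under 100 being 1.5-fold or more apart. A signal below the floor does not show absence, since Calm2 (calmodulin) and Myl6 (a myosin light chain), both made by nearly every cell, were also below it on both arrays. Signals of different probe sets are not on a common scale, so S100a8 and S100a9 were not ranked against each other.

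S100a10, also called p11, which binds annexin A2 and helps to hold plasminogen at the cell surface, had the widest ratio of the members above the floor on both arrays. Its probe set (92539_at) gave 3793 for the knockout and 3001 for the wild type, 1.26-fold higher (log2 ratio 0.34). Among the 165 genes with a brighter signal of 3000 or more, 16 (9.70%), S100a10 included, had a ratio at least as far from 0, and the median log2 ratio of the 165 was 0.081. Such bright genes were nearly all alike on the arrays, with 0.606% of them 1.5-fold or more apart.

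S100a6 and S100a4, like S100a8, were slightly lower in the knockout, under each of the alternatives tried. Only same-median scaling and quantile normalization changed these ratios beyond rounding, so the other alternatives could not have altered the sign. S100a6 (calcyclin, 92770_at), a partner of the ubiquitin ligase adaptor Cacybp, was at 2565 against 2829 (log2 ratio -0.14). S100a4 (metastasin, 99051_at), which binds non-muscle myosin, was at 1198 against 1221 (-0.027). Over the 5 S100 genes 2 ratios were above 0 and 3 below, with a median of -0.027. The probe set 98600_at, annotated to S100a11, its pseudogene and a predicted gene, was at 2184 against 2446 (-0.16), and it cannot be assigned to 1 of them.

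All 3 galectin genes were a little higher in the knockout, at 1.18-fold or less, although only 1 of them, Lgals9, was higher after same-median scaling. Lgals9 (103335_at), whose protein binds the receptor TIM-3 on lymphocytes, was at 1851 for the knockout and 1567 for the wild type (log2 ratio 0.24). Lgals1 (99669_at), a dimeric galectin with T cell-suppressing activity, was at 4720 against 4431 (0.091), and Lgals3 (95706_at) was at 6829 against 6468 (0.078). The last 2 ratios are about the median of the 165 brightest genes (0.081). Same-median scaling moved the median of all eligible genes from 0.016 to -0.097, and Lgals1 was then at -0.027 and Lgals3 at -0.040, while Lgals9 stayed above 0 at 0.12 and S100a10 at 0.22.

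**Figure D2:**
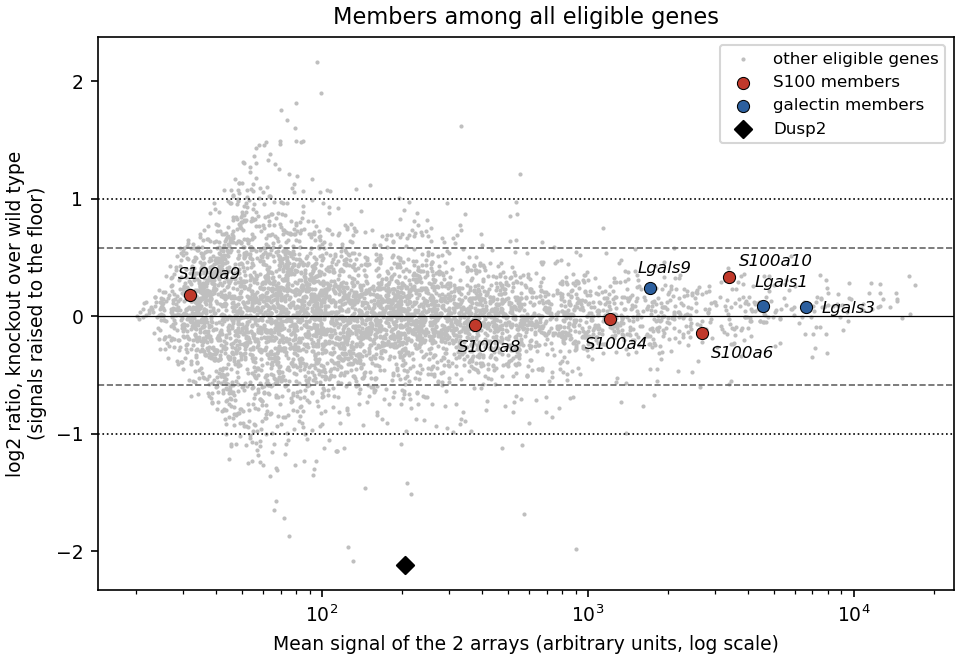
Log2 ratio of knockout over wild type, after signals were raised to the floor, against the mean signal of the 2 arrays (log axis) for the 5120 eligible genes. Dashed lines mark 1.5-fold and dotted lines 2-fold; the S100 and galectin genes lie between the dashed lines, while Dusp2 lies at -2.12.

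The only available measure of error was the disagreement between probe sets of the same gene, which share the RNA and the array and so leave out differences between mice. Over 521 genes with several probe sets and all these signals above the floor, the log2 ratios of a gene's probe sets had a pooled SD of 0.33. For the 93 such genes with signals above 300 the SD was 0.23, and for the 24 with signals above 1000 it was 0.13. The ratios of S100a4, S100a8, Lgals1 and Lgals3 were smaller than the SD for probe sets as bright as theirs. S100a6 differed by about that SD (-0.14 beside 0.13), and Lgals9 (0.24) and S100a10 (0.34) by more than it. After same-median scaling S100a4 was at -0.15, S100a6 at -0.26 and Lgals9 at 0.12, so these comparisons depend on the scaling. S100a13 shows how far probe sets can part, since its 3 probe sets gave log2 ratios of 0.29, -0.071 and 0.48.

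Other genes of the S100 family were mostly dim. Of 11 listed family genes 8 were on the array and 5 eligible, with 4 above 0 and 1 below, 1 of them 1.5-fold higher, and a median of 0.10. After same-median scaling 2 were above 0 and 3 below, 0 were 1.5-fold higher and the median was -0.014. The plotted list also holds S100pbp, which encodes a binding protein of the family (68.2 against 57.6, 0.24), and has a median of 0.17 with it. The gene past 1.5-fold, S100a3, was dim, at 83.4 against 55.2 (log2 ratio 0.60), and its second probe set gave only signals under the floor. The share 1.5-fold or more apart was 12.1% over all eligible genes and 16.9% over those whose brighter signal was under 100. S100a13, a carrier in the export of proteins that lack a signal peptide, was at 1013 against 827 by its brightest probe set. S100g (calbindin-D9k) had the lowest ratio, at 82.7 against 106 (-0.36). S100a1 was taken from a probe set marked by its suffix for cross-hybridisation (597 against 556, 0.10), while its other 2 probe sets were dim, with brighter signals of 43.1 and 18.8. Of 8 other listed galectin genes 3 were on the array, and only Lgals3bp, which encodes a secreted glycoprotein ligand of galectin-3, was above the floor, at 927 against 666 (0.48).

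The list of annexins, the calcium-dependent membrane-binding partners of several S100 proteins, had ratios above 0 in 8 of 8 eligible genes, and in 6 of 8 after same-median scaling. The list, which includes the scaffold gene Ahnak, had a median log2 ratio of 0.25 and 0 genes 1.5-fold apart. Over all eligible genes the median was 0.016, 52.2% of ratios were above 0 and 12.1% of genes were 1.5-fold or more apart. Of the 8 genes 4 were among the 165 with a brighter signal of 3000 or more, where the median was 0.081 and 66.1% of ratios were above 0. Anxa2, the partner of S100a10, was at 10531 for the knockout and 8643 for the wild type (0.29), close to the ratio of S100a10 itself. Anxa1, the anti-inflammatory annexin that binds S100a11, was at 8396 against 6587 (0.35) from a probe set marked for possible cross-hybridisation, and its other 2 probe sets gave 0.23 and -0.13. Anxa7 had the highest ratio (282 against 195, 0.53) and Ahnak, the gene of a giant scaffold protein bound by annexin A2 and S100a10, the lowest (114 against 112, 0.033). After same-median scaling the list's median was 0.13.

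Receptors and intracellular targets of S100 proteins had 3 of 9 eligible genes above 0 and 6 below (2 and 7 after same-median scaling), with a median of -0.019. Ager, the gene of RAGE, had a signal of 80.0 for the knockout and one under the floor for the wild type (17.6). It was at least 2.20-fold higher, the only gene of the list past 1.5-fold, and was eligible through the knockout signal alone. Of eligible genes whose brighter signal was under 100, 16.9% were 1.5-fold or more apart. Cacybp, the S100a6 partner, was lowest at 172 against 252 (-0.55). Bsg (basigin), a receptor for S100a9, was at 675 against 674 and Myh9, the non-muscle myosin bound by S100a4, at 2282 against 2285, although a dimmer Myh9 probe set marked for cross-hybridisation gave -0.60.

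Glycoprotein ligands of galectins and the enzymes that build their glycans had 11 of 18 eligible genes above 0 and 7 below (6 and 12 after same-median scaling), with a median of 0.028, and 1 gene 1.5-fold lower. That was Gcnt1, the core-2 branching enzyme, at 57.2 in the wild type and below the floor in the knockout (34.9), at least 1.57-fold lower. Like Ager, Gcnt1 was dim and eligible through a single array. The share of all eligible genes 1.5-fold or more apart was 12.1%. Man2a1, a mannosidase of complex N-glycan synthesis, was at 488 against 695 (-0.51). Cd44 had the highest ratio (294 against 221, 0.41), and Lamp2, a lysosomal membrane protein rich in galectin-binding glycans, was at 2221 against 1892 (0.23) by its brighter probe set and at -0.048 by the other. Other EF-hand genes had 14 of 19 above 0 (9 after same-median scaling), a median of 0.10 and 0 genes 1.5-fold apart, from Calb2 (at least 1.32-fold lower, from 48.1 in the wild type) to Pls3 (94.1 against 72.6, 0.37).

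**Figure D3:**
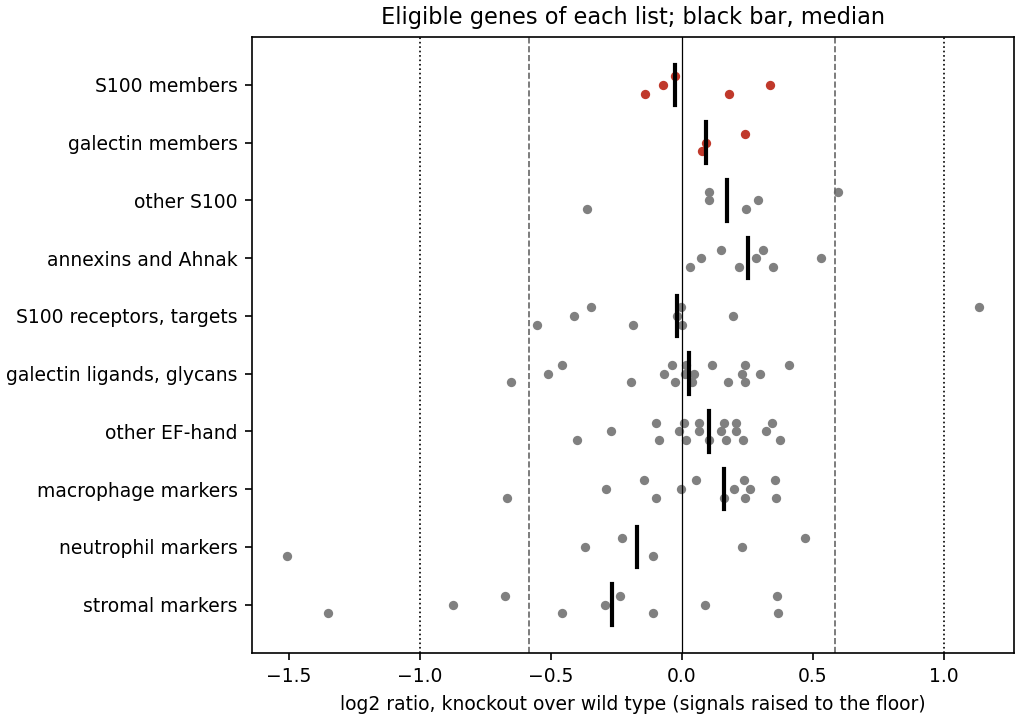
Log2 ratio of knockout over wild type for the eligible genes of each plotted list, with the list's median as a black bar, dashed lines at 1.5-fold and dotted lines at 2-fold. Other galectins and the eosinophil, lymphocyte, mast cell and dendritic cell markers are not plotted. The 8 genes of the annexin list lie above 0 with a median of 0.25 (6 of 8 above 0 after same-median scaling).

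Both families are also made by cells other than macrophages. In such bulk RNA, fewer cells of a type and less RNA per cell cannot be told apart. Neutrophils are the richest source of S100a8 and S100a9, and 6 of the 13 neutrophil markers on the array were above the floor, with 2 above 0, 4 below and a median of -0.17. The neutrophil marker signals summed to 813 for the knockout and 1087 for the wild type. Such sums, here and for the other marker lists, include genes below the floor. The brightest probe sets weigh most in them, so they do not measure the amount of a cell type. Chil3, also made by macrophages, was lowest at 112 against 320 (-1.51), and without it the sums were 700 and 767. Lcn2, a granule protein gene, gave opposite signs in its 2 probe sets, 176 against 150 (0.23) in the brighter one, marked for cross-hybridisation, and 45.0 against 143 (-1.67) in the other. Without probe sets so marked, 1 of the 6 markers was above 0 and 5 below, and the sums were 682 and 1080, or 570 and 760 without Chil3. Camp, a granule peptide gene, was highest at 85.7 against 61.9 (0.47), and Ly6g, Ngp, Ltf, Mpo, Cxcr2, Ctsg and Prtn3 were below the floor on both arrays. The part of neutrophils in the S100a8 and S100a9 values was not tested.

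Macrophage markers, among them the Mac-1 gene Itgam (356 against 301, 0.24), had 8 of 13 eligible genes above 0 and a median of 0.16, and their signals summed to 50570 for the knockout and 45673 for the wild type. The highest was Fcgr1 (3771 against 2939, 0.36), and Msr1 was 1.59-fold lower (1366 against 2171). The ratios of S100a10, Lgals9 and the annexins other than Anxa7 lay within the range of these markers, and the part of macrophage content in them was not tested. Stromal and mesothelial markers, which mark cells rich in Lgals1 and S100a6, had 3 of 10 eligible genes above 0 and a median of -0.26 (0.088 with no floor), and summed to 1677 against 2031. Of these Acta2 was 2.55-fold lower (52.2 against 133), Pdgfra 1.83-fold lower (236 against 432) and Sparc 1.60-fold lower (54.6 against 87.3), while Dcn was highest (318 against 247, 0.37). Among all eligible genes 12.1% were 1.5-fold or more apart and 2.3% were 2-fold or more apart. The keratin genes Krt8, Krt18 and Krt19 and the mesothelial genes Msln and Wt1 were below the floor on both arrays. Their part in the Lgals1 and S100a6 values was not tested.

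Markers of other cells rested on few genes. Lymphocyte markers had 5 eligible genes, with Cd79a at least 2.75-fold higher and Cd4 at least 2.05-fold lower, and with Ighm (123 against 230, -0.90) and Ms4a1 (52.2 against 87.4, -0.74) past 1.5-fold. The remaining gene, Cd79b, was at 82.8 against 91.9 (-0.15). The Ighm probe set, 1 of 16 for the gene, was marked for cross-hybridisation, and an unmarked one gave 57.3 against 89.7 (-0.65). The only eligible eosinophil marker, Prg2, had a knockout signal of 100.1 and a wild-type signal under the floor, at least 2.75-fold higher, and its other probe set was dim on both arrays. Cd79a, Cd4 and Prg2 were each eligible through a single array. Among all eligible genes 12.1% were 1.5-fold or more apart and 2.3% were 2-fold or more apart. Mast cell markers ran from Hdc (556 against 757, -0.45) to Tpsb2 (192 against 116, 0.73), and dendritic cell markers from Batf3 (83.9 against 110, -0.39) to Cd83 (2160 against 1715, 0.33).

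The labels were checked through Dusp2, which gave 76.8 for the knockout and 333 for the wild type (log2 ratio -2.12). The labels do not state which part of the gene was deleted or whether these probes fall in it. Array medians were 38 and 35. The ratio of 3′ to 5′ actin control signals was 2.42 for the knockout and 2.54 for the wild type, and that of Gapdh was 1.62 and 1.81.

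**Figure D4:**
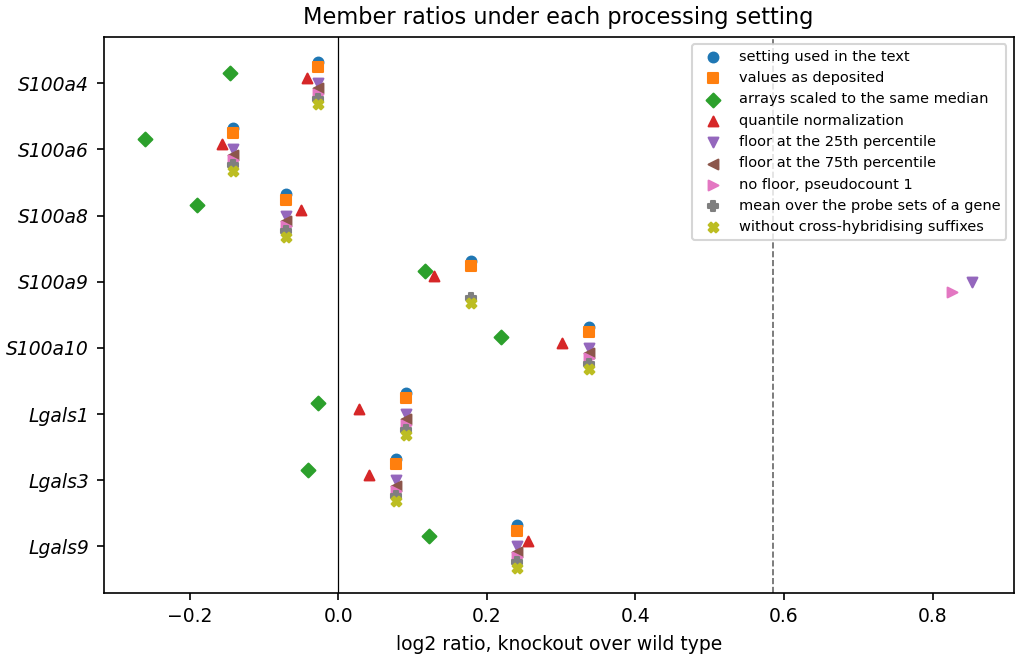
Log2 ratio of knockout over wild type for each member under the 9 processing settings, with the dashed line at 1.5-fold; S100a9 has no value at the 75th percentile floor. Only S100a9 passes the line, with the lowest floor or none, and only Lgals1 and Lgals3 change sign, after same-median scaling.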

How the data were processed

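The authors deposited linear intensities, 1 for each probe set on an array, computed with MAS5 per the submitters' processing notes, which give no version or settings. Their 2% trimmed means were equal (150.0), so both arrays had been scaled to the same level. A floor on the signal stood in for detection calls, which were not used. Total RNA was amplified from a poly(T) primer, per the labels' protocols, which favours 3′ ends.

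Of 12654 probe sets, 10301 had 1 gene symbol in the platform annotation, 360 had several and 1993 had none; 10282 matched an Entrez identifier of the RefSeq table (GRCm38.p6), which changed 0 symbols. The 66 control probe sets were left out. Each array was scaled to a common trimmed mean, signals were raised to the floor (36.4), and knockout was divided by wild type on the log2 scale. The probe set with the highest mean signal stood for a gene. A value with 1 signal below the floor is a bound, written "at least". With 1 array per genotype nothing was tested, and array number limits the precision. Calls use 2-fold and 1.5-fold size rules. The calculation was tested on simulated data, with Python 3.11.15, numpy 2.4.6 and pandas 2.3.3.

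Named genes were the members, Dusp2, and of each list the extremes and the genes past 1.5-fold; others were added as partners or marker examples after their values were seen. The members and lists were chosen with earlier results of these data known. The promoter motifs were chosen after the ratios were seen, and the interferon motif was shortened by 1 base after a first search. The alternatives were other scalings, floors and ways to choose among probe sets.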

Additional observations from a re-analysis of the deposited data

How the results depend on the processing

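No paired analysis was possible because there was 1 array per genotype. Values were compared with the pooled SD between probe sets of 1 gene (0.33, divided by the root of the list's size for medians). Counts were instead called moved when they changed by more than 1.5-fold or to or from 0. Of 231 recomputed values 209 stayed within these limits and 22 did not. Many of the 209 could not move, because the deposited arrays were already scaled alike and each member had 1 probe set. The limit of 0.33 is also wide beside the SD of 0.13 for probe sets with signals above 1000. Same-median scaling changed the sign of Lgals1 (0.091 to -0.027), Lgals3 (0.078 to -0.040) and the galectin median (0.091 to -0.027). These changes counted as within the limits, so the count of 209 does not show that signs held. The count of members 2-fold apart was 0 under every alternative run. The count 1.5-fold apart was 1 (S100a9) with a floor at the 25th percentile and 1 with no floor. With arrays scaled to the same median, the median log2 ratio was -0.034 for the members, 0.13 for annexins, -0.14 for S100 receptors and targets, -0.091 for galectin ligands and glycan enzymes, -0.016 for other EF-hand genes, 0.041 for macrophage markers and -0.38 for stromal markers, and members split into 3 above 0 and 5 below. Since that scaling moves every unfloored ratio by the same amount, these shifts follow from its construction. The split of all genes 2-fold apart was then 43 higher and 86 lower, against 63 and 55. Quantile normalization gave 0.066 for macrophage markers. With a floor at the 25th percentile, medians were -0.10 for stromal, 1.96 for eosinophil, -0.25 for lymphocyte and 0.47 for mast cell markers. With a floor at the 75th percentile, which left 7 members, they were -0.37 for neutrophil and -0.074 for stromal markers. With no floor they were 0.76 for other galectins, 0.088 for stromal, -0.35 for lymphocyte and 0.42 for mast cell markers. The number of genes counted as 2-fold apart rose to 476 higher and 344 lower with the lower floor and to 773 and 598 with none, and fell to 2 and 8 with the higher one; fewer or more dim genes are eligible under each. The choice among probe sets could not move the members, each of which had 1 probe set with no cross-hybridisation suffix. After the values were seen, S100a11 was added through its shared probe set, which gave 5 members above 0 and 4 below, and S100a9 was left out, which gave 4 and 3. The neutrophil sums without marked probe sets and the S100 family count without S100pbp were also chosen after the data were seen.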
